A study of Homo sapiens with 96 samples.

Results

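The genes described here are 10 heat shock genes, which encode molecular chaperones: HSPA1A, HSPA1B, HSPA8, HSPH1, HSP90AA1, HSP90AB1, DNAJB1, DNAJA1, HSPD1 and CRYAB. They were taken by gene symbol and are 10 of the 19438 genes in each of the 8 deposited tables. All 10 passed the filter on low counts in every comparison. The study sequenced total RNA and ribosome footprints, the mRNA fragments covered by ribosomes, over 1 day in U2-OS, a human osteosarcoma cell line that carried luciferase under the Per2 promoter. All cells were grown at 37 °C, moved to 36 °C for the time course and synchronised with 0.1 µM dexamethasone, a glucocorticoid that resets the circadian clock. Cells were collected every 2 h at 12 circadian times, CT00 to CT22, the first at 24.5 h after synchronisation, and received 100 µg/mL cycloheximide for 3 min before lysis to hold ribosomes on the mRNA.

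Wild-type cells, 2.25 M per plate at seeding (M, 1000000), were not transfected. Knockdown plates began with 0.56 M cells and were transfected with 120 pmol of a mixture of 5 siRNAs against Bmal1, the clock activator whose symbol in the tables is ARNTL. A control siRNA is not among the labels, so the loss of BMAL1, the transfection and the seeding density cannot be told apart in a difference between the treatments. Each treatment, assay and time had 2 replicates, which makes 24 libraries per treatment and assay and 96 in all. Whether the replicates were separate cultures is not in the labels, so p-values reflect only how far these samples spread, which may be technical. In such bulk samples, fewer cells of a type and less RNA per cell cannot be told apart.

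Heat shock proteins bind unfolded proteins and keep them from aggregating. HSP70 proteins (HSPA1A, HSPA1B, HSPA8) cycle on and off their clients with the help of J proteins (DNAJB1, DNAJA1) and of the nucleotide exchange factor HSPH1, and HSP90 proteins (HSP90AA1, HSP90AB1) take over clients such as kinases and steroid receptors. HSPD1 is the chaperonin of the mitochondrial matrix, and CRYAB is a small heat shock protein that holds unfolded clients without ATP. Stress-induced transcription of these genes runs through HSF1, a factor that binds repeats of the unit GAA, in alternating orientation, upstream of their start sites.

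Those repeats were searched for in the 250 bases upstream of each start site in RefSeq's GRCh38.p14 promoter windows. A head-to-head pair, GAA and TTC with 2 bases between them, was present upstream of 8 of the 9 members with a window (HSPA1A, HSPA1B, HSPA8, HSP90AA1, HSP90AB1, DNAJB1, DNAJA1 and HSPD1), against 7.05% of all 27305 genes. Counted by window, it was in 8 of the members' 15 windows, against 5.78% of all 35116 windows. HSP90AA1, HSP90AB1, DNAJB1 and HSPD1 have several windows each, for alternative start sites, and only 1 window of each gene held a match. For HSP90AB1 this was the window farthest downstream (chr6:44247693-44247942), while those at 44245944-44246193 and 44246851-44247100 held none. HSPH1 had no such match, and CRYAB was not matched to a window. The pair was extended by 1 more unit at the same spacing (GAA after it or TTC before it) in HSPA8, HSP90AA1, HSP90AB1 and HSPD1, 4 of 9 genes against 0.557% of all genes, and 4 of 15 windows against 0.441% of all windows. Both strands were read, and a match is a description of the letters only. The following stretches are shown because the 6 genes carry the main contrasts of the expression data: the near-identical copies HSPA1A and HSPA1B, the constitutive HSPA8, the HSP90 pair and DNAJB1. Each is written 5′ to 3′ on the gene's strand, with the matched units in capitals.
HSPA1A (chr6:31815370-31815449, plus strand): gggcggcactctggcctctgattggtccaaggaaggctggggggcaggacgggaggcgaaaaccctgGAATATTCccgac
HSPA1B (chr6:31827566-31827645, plus strand): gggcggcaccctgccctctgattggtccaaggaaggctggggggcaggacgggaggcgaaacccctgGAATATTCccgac
HSPA8 (chr11:123062174-123062253, minus strand): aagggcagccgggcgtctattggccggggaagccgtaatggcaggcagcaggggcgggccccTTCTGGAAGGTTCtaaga
HSP90AA1 (chr14:102087115-102087194, minus strand): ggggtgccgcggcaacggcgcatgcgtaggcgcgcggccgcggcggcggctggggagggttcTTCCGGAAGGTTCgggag
HSP90AB1 (chr6:44247769-44247848, plus strand): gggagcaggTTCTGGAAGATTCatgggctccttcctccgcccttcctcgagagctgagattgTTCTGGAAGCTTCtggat
DNAJB1 (chr19:14518432-14518511, minus strand): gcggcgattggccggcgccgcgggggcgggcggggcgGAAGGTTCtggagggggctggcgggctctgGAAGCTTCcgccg
The upstream windows of HSPA1A and HSPA1B were identical at 235 of 249 aligned bases (94.4%). The proteins these 2 genes encode are also nearly identical, and how the authors' counting treated reads that match both copies is not given in the sources used here. The split of reads between HSPA1A and HSPA1B, and the total of the pair, are therefore uncertain wherever their values are given. The same holds, to a lesser degree, for HSPA8, the HSP90 pair and HSPD1, which have processed pseudogenes or close paralogs.

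Values are CPM, read counts scaled to a library of 1000000 reads and computed from the whole reads recovered from the deposited tables. The median depth was 16.3 M reads in total RNA and 3.67 M in footprints. In the knockdown, replicate 2 had shallow total RNA libraries at CT14 (2.66 M) and CT18 (2.56 M), and results that change without them are named. ARNTL, the siRNA target, averaged 32.6 CPM in wild-type and 4.82 CPM in knockdown total RNA, and each knockdown library lay below each wild-type library in both assays. The mesenchymal markers VIM, CDH2 and FN1 summed to 2610 to 3004 CPM in wild-type and 3762 to 4491 CPM in knockdown total RNA, and 9 osteoblast lineage markers to 1101 to 1394 and 1190 to 1759 CPM. The mean of FN1 went from 705 to 1612 CPM. Most of the osteoblast sum was SPARC (means 1038 and 1138 CPM). RUNX2 went from 15.5 to 10.5 CPM and COL1A1 from 180 to 176 CPM, while SPP1 went from 12.4 to 34.4 CPM and ALPL from 4.10 to 11.4 CPM. Of the osteoblast lineage markers, SP7, BGLAP and IBSP (the last 2 being markers of mature osteoblasts) and the collagen gene COL1A2 were at or near 0 in total RNA of both treatments. Epithelial markers summed to 7.36 to 23.9 and 7.63 to 15.5 CPM, and blood markers to 1.58 to 3.39 and 9.80 to 17.7 CPM, the latter nearly all CD68. The part of these shifts in the results below was not tested.

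The first question was whether the chaperone genes stood at another level in the knockdown. In total RNA, averaged over the 12 times, 5 of the 10 were higher and 3 lower in the knockdown. DNAJB1 had the largest difference, 1.35-fold higher, and the inducible HSP70 genes HSPA1A and HSPA1B fell by 0.26 and 0.25 on the log2 scale. HSP90AA1 and HSPD1 did not pass the test. With 80.3% of all 14033 genes tested past the same threshold (40.2% higher, 40.1% lower), 8 of 10 is near the background. The median of the 10 was 0.04 on the log2 scale, and the median of all genes -2.8e-05. Each difference is limma's log2 difference of CPM plus 0.25, ± its standard error, with a Benjamini-Hochberg adjusted p over all genes tested; the threshold was 0.05.

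DNAJB1, the J protein that delivers clients to cytosolic HSP70, ran from 137 to 162 CPM in the 24 wild-type total RNA libraries, with a median of 152 CPM. In the 24 knockdown libraries it ran from 169.6 to 238 CPM, with a median of 209 CPM. All 24 knockdown libraries lay above all 24 wild-type libraries, which was the case in neither direction for any other member, against 19.0% of all genes tested. The difference was 0.43 ± 0.02 (adjusted p = 1.6e-22, limma) and was positive at all 12 times, from 0.25 at CT00 to 0.55 at CT16. In footprints DNAJB1 ran from 116 to 145 CPM in wild-type and from 143 to 199 CPM in the knockdown, with medians of 129 and 178 CPM. Here 23 of the 24 knockdown libraries exceeded the highest wild-type library, and the difference was again 0.43 ± 0.03 (adjusted p = 1.9e-17, limma).

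The inducible HSP70 genes among the 10, HSPA1A and HSPA1B, went the other way. HSPA1A ran from 36.3 to 51.9 CPM (median 42.9) in wild-type total RNA and from 27.5 to 47.0 CPM (median 36.1) in the knockdown. HSPA1B ran from 30.6 to 40.5 CPM (median 35.4) and from 23.0 to 36.8 CPM (median 29.1). The ranges overlapped for both genes, but the mean of the knockdown was lower at all 12 times. The differences were -0.26 ± 0.03 for HSPA1A (adjusted p = 2.2e-08, limma) and -0.25 ± 0.03 for HSPA1B (7.7e-09). Their footprints were sparse, with 10 to 72 reads per wild-type library for HSPA1A and 19 to 54 for HSPA1B. HSPA1A fell from a mean of 10.6 ± 2.75 CPM (SD, n = 24) to 8.38 ± 2.29 CPM, and HSPA1B from 9.17 ± 2.19 to 6.86 ± 1.75 CPM. The differences in footprints, -0.31 ± 0.10 and -0.41 ± 0.10 (adjusted p = 0.0073 and 3.0e-04, limma), had the sign they had in total RNA.

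HSPA8, the constitutive HSP70, ran from 2044 to 2567 CPM (median 2319) in wild-type total RNA and from 2354 to 2826 CPM (median 2608) in the knockdown. The libraries overlapped, with 13 of 24 knockdown libraries above the highest wild-type library. The difference was 0.17 ± 0.02 (adjusted p = 3.5e-10, limma) in total RNA and 0.10 ± 0.03 in footprints (0.0087). HSPH1, the exchange factor for HSP70, rose by less in total RNA, 0.10 ± 0.02 from a median of 157 to 164 CPM (adjusted p = 2.4e-05, limma), and by 0.18 ± 0.04 in footprints (1.9e-05). Both genes overlapped between the treatments in both assays.

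DNAJA1, a J protein of the cytosol, had medians of 363 CPM in wild-type and 378 CPM in knockdown total RNA, and 535 and 695 CPM in footprints. Its footprint range was 447 to 701 CPM in wild-type and 563 to 875 CPM in the knockdown, so that 11 of 24 knockdown libraries were above the highest wild-type library. The difference was 0.07 ± 0.02 in total RNA (adjusted p = 0.0036, limma) and 0.28 ± 0.05 in footprints (4.0e-06). HSP90AB1, the constitutive HSP90, rose by 0.08 ± 0.02 in total RNA (adjusted p = 0.0022, limma) and 0.11 ± 0.02 in footprints (1.4e-05). HSP90AA1, the inducible HSP90, differed by -0.05 ± 0.03 and -0.01 ± 0.03 (adjusted p = 0.155 and 0.846, limma), and HSPD1 by 0.01 ± 0.02 and -0.01 ± 0.03 (0.796 and 0.847). With the authors' own scaling in place of TMM, both of the latter genes were higher in knockdown footprints, by 0.08 each (adjusted p = 0.0369 and 0.0270, limma). CRYAB, the small heat shock protein, fell by 0.17 ± 0.06 on the log2 scale in total RNA (adjusted p = 0.0091, limma) and 0.22 ± 0.03 in footprints (5.7e-07). Its wild-type replicates stood apart, with means over the 12 times of 126 CPM in replicate 1 and 163 CPM in replicate 2, beside 125 and 129 CPM in the knockdown.

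In footprints 8 of the 10 passed, the same 8 genes in the same directions as in total RNA, beside 74.1% of 11995 genes tested, and no member's treatments were free of overlap, beside 11.2% of genes. The treatments were then compared with the 12 times of each replicate averaged first, which leaves 2 values against 2. Only DNAJB1, HSPA1A and HSPA1B then passed in total RNA, 3 of 10 beside 57.3% of all genes tested. In footprints DNAJB1, DNAJA1, HSPH1, HSPA1B and CRYAB passed, 5 of 10 beside 57.7%. Without replicate 2, CRYAB (-0.01) and HSP90AB1 (-0.01) lost their calls in total RNA while HSP90AA1 gained one (-0.12, adjusted p = 0.0035, limma), which it also did without the 2 shallow libraries (-0.07, 0.0458). Without replicate 1, DNAJA1 lost its call in total RNA (0.02), and DNAJA1 (0.12), HSPA1A (-0.22) and HSPA8 (-0.02) lost theirs in footprints.

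**Figure D1:**
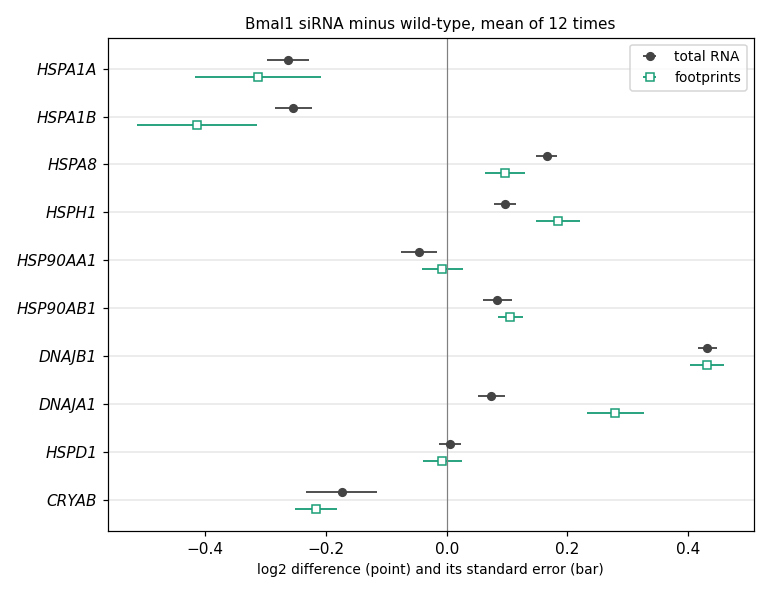
Knockdown minus wild-type for each of the 10 genes, as the log2 difference (horizontal axis) averaged over 12 times, in total RNA (filled circles) and footprints (open squares), with bars of 1 standard error. DNAJB1 lies farthest to the right in both assays at 0.43, HSPA1A, HSPA1B and CRYAB lie left of 0, and DNAJA1 is the gene whose 2 points are farthest apart among those to the right.

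Footprints relative to total RNA give the translational efficiency, the ribosome load per mRNA. The knockdown effect on it was tested as the difference of the treatment effects in 1 model over both assays. DNAJA1 was the 1 member of 10 that passed, 0.21 ± 0.05 higher in the knockdown (adjusted p = 0.0018, limma), beside 29.8% of 11947 genes tested (15.0% higher, 14.8% lower). DNAJB1 differed by -3.8e-04 ± 0.03 (adjusted p = 0.993, limma), since its total RNA and footprints were higher by the same amount. HSPA1B had the lowest value, -0.16 ± 0.10 (0.25). For HSPH1 the difference was 0.09 ± 0.04 (0.115). The call for DNAJA1 was lost without replicate 1 (0.09, adjusted p = 0.409, limma) and with 2 values against 2 (0.366). With the authors' scaling, which moves the median of all genes from 0.01 to 0.09, DNAJB1 (0.08), HSP90AA1 (0.12), HSP90AB1 (0.10) and HSPH1 (0.17) passed as well, and the share of higher calls among all genes rose from 50.4% to 79.8%.

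The ratio itself differed more between the genes than between the treatments. In wild-type cells log2 footprint CPM minus log2 total RNA CPM was 1.45 ± 0.14 for CRYAB (SD, n = 24 pairs), at the 94.7th percentile of 11947 genes, and 1.04 ± 0.15 for HSPH1, at the 89.6th. DNAJA1 (0.62 ± 0.15), HSP90AA1 (0.50 ± 0.16) and HSP90AB1 (0.39 ± 0.11) also lay above the median of all genes, -0.11. DNAJB1 (-0.22 ± 0.08), HSPA8 (-0.62 ± 0.10) and HSPD1 (-0.76 ± 0.11) lay below it. HSPA1B (-1.96 ± 0.31) and HSPA1A (-2.08 ± 0.44) were at the 6.18th and 5.15th percentiles, on the few footprint reads given above. How reads that match both copies were counted in either assay is not given, so these low ratios may not reflect ribosome load. The order of the 10 was the same in the knockdown. Some neighbours in it, among them HSPA1A and HSPA1B as well as HSP90AA1 and HSP90AB1, differed by less than the larger of their SDs. Others, such as HSPD1 and HSPA1B, differed by more. Whether reads were counted over whole genes or coding parts is not given in the sources used here, and coding shares of the mRNAs, on which such a ratio also depends, were not used.

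**Figure D2:**
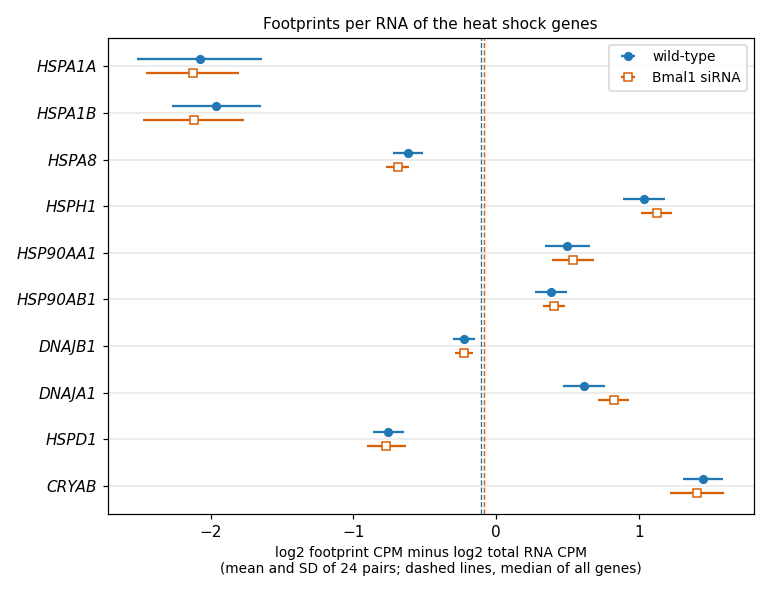
Footprints per RNA of the 10 genes, as log2 footprint CPM minus log2 total RNA CPM (horizontal axis), with the mean and SD of 24 library pairs in wild-type (filled circles) and Bmal1 siRNA cells (open squares) and the median of all genes as dashed lines. CRYAB and HSPH1 lie above 1 and HSPA1A and HSPA1B near -2, and DNAJA1 is the gene whose treatments are farthest apart relative to their bars.

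The second question was how the genes moved over the day. The 6 libraries of the last 3 times (CT18 to CT22) were compared with the 6 of the first 3 times (CT00 to CT04). In wild-type total RNA 7 of the 10 fell, CRYAB and DNAJB1 rose, and HSPA1B did not pass. That is 9 of 10 members past the threshold, beside 35.7% of 13677 genes tested (15.9% higher, 19.8% lower). The median of the 10 was -0.19 and that of all genes -0.01. In wild-type footprints 6 fell and CRYAB rose, 7 of 10 beside 26.0% of 11671 genes (12.6% higher, 13.3% lower), with a median of -0.34 for the 10 and -0.01 for all genes.

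HSP90AA1 had the largest fall in wild-type total RNA. It ran from 512 to 665 CPM in the first 6 libraries (median 574) and from 397 to 495 CPM in the last 6 (median 475), with no overlap, and the difference was -0.35 ± 0.06 (adjusted p = 3.5e-06, limma). HSPH1 fell from 162 to 176 CPM (median 169.9) to 129 to 153 CPM (median 139), also without overlap (-0.28 ± 0.04, adjusted p = 2.4e-07). DNAJA1 fell from 361 to 418 CPM to 324 to 347 CPM (-0.24 ± 0.04, 8.9e-06), HSPD1 from 576 to 659 to 492 to 545 CPM (-0.21 ± 0.04, 4.5e-05) and HSPA8 from 2358 to 2555 to 2044 to 2257 CPM (-0.18 ± 0.03, 4.6e-05). In these 5 genes every late library was below every early one. The early and late libraries of HSPA1A (-0.20 ± 0.07, adjusted p = 0.0351, limma), HSP90AB1 (-0.15 ± 0.04, 0.0039) and HSPA1B (-0.16 ± 0.07, 0.0566) overlapped. CRYAB rose from 95.7 to 130 CPM (median 115) to 149 to 202 CPM (median 176), a difference of 0.62 ± 0.10 (adjusted p = 3.5e-06, limma). DNAJB1 rose from 137 to 153 CPM to 155 to 162 CPM (0.13 ± 0.03, 0.0031). Neither of these overlapped, so 7 of the 10 had no overlap, beside 16.8% of all genes tested.

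In wild-type footprints 6 of the 7 genes that fell in total RNA fell as well, all but HSPA1A. DNAJA1 differed by -0.40 ± 0.08, HSPH1 by -0.40 ± 0.07, HSP90AA1 by -0.38 ± 0.07, HSPD1 by -0.37 ± 0.07, HSPA8 by -0.35 ± 0.07 and HSP90AB1 by -0.25 ± 0.04, with adjusted p from 2.5e-06 to 3.3e-04 (limma). Whether these falls differed from those in total RNA was not tested. Footprints of HSPH1, HSP90AA1, HSP90AB1, HSPD1 and HSPA8 did not overlap between the early and late libraries, and those of CRYAB, which rose by 0.49 ± 0.07 (7.9e-08), did not either. These were 6 of 10 members beside 8.23% of genes. HSPA1A (0.29 ± 0.21), HSPA1B (-0.33 ± 0.19) and DNAJB1 (0.13 ± 0.05, adjusted p = 0.0723) did not pass.
Without replicate 1, 5 members passed in total RNA (DNAJB1, HSP90AB1, HSPA1A and HSPD1 lost their calls) and 4 in footprints (HSP90AA1, HSP90AB1 and HSPH1 lost theirs). Without replicate 2, HSPA1A lost its call in total RNA, while HSPA1B passed then (-0.18), with edgeR (-0.16) and without the 2 shallow libraries (-0.15). DNAJB1 passed in footprints without replicate 2 (0.20) and with no filter (0.14).

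In knockdown total RNA HSPA8 rose from 2354 to 2455 CPM to 2565 to 2826 CPM (0.17 ± 0.03, adjusted p = 1.2e-04, limma), with no overlap, the direction opposite to that in wild-type cells. DNAJB1 rose from 169.6 to 195 CPM to 205 to 227 CPM (0.25 ± 0.03, 1.2e-07) and CRYAB from 102 to 116 CPM to 139 to 170.02 CPM (0.52 ± 0.10, 4.8e-05). HSPD1 fell from 588 to 680.4 CPM to 475 to 573 CPM (-0.19 ± 0.04, 1.9e-04). Those 4 of 10 members, which were also the 4 without overlap, stand beside 32.3% of genes past the threshold (15.3% higher, 17.0% lower) and 15.1% without overlap. Values for the others ran from -0.11 for HSPA1B to 0.05 for DNAJA1. Footprints gave the same 4 genes in the same directions: HSPA8 0.19 ± 0.07, DNAJB1 0.25 ± 0.05, CRYAB 0.26 ± 0.07 and HSPD1 -0.24 ± 0.07 (adjusted p = 0.0401, 3.8e-04, 0.0028 and 0.0071, limma), beside 19.1% of genes (9.15% higher, 9.96% lower). Of these only DNAJB1 had early and late footprint libraries without overlap, 1 of 10 beside 8.27% of genes. Without replicate 1 the footprint calls of CRYAB (0.21) and HSPD1 (-0.12) were lost and without replicate 2 that of HSPA8 (0.17), which was also lost with the authors' scaling (0.16) and with no filter on low counts (0.18). HSP90AA1 passed in footprints without replicate 2 (-0.23).

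**Figure D3:**
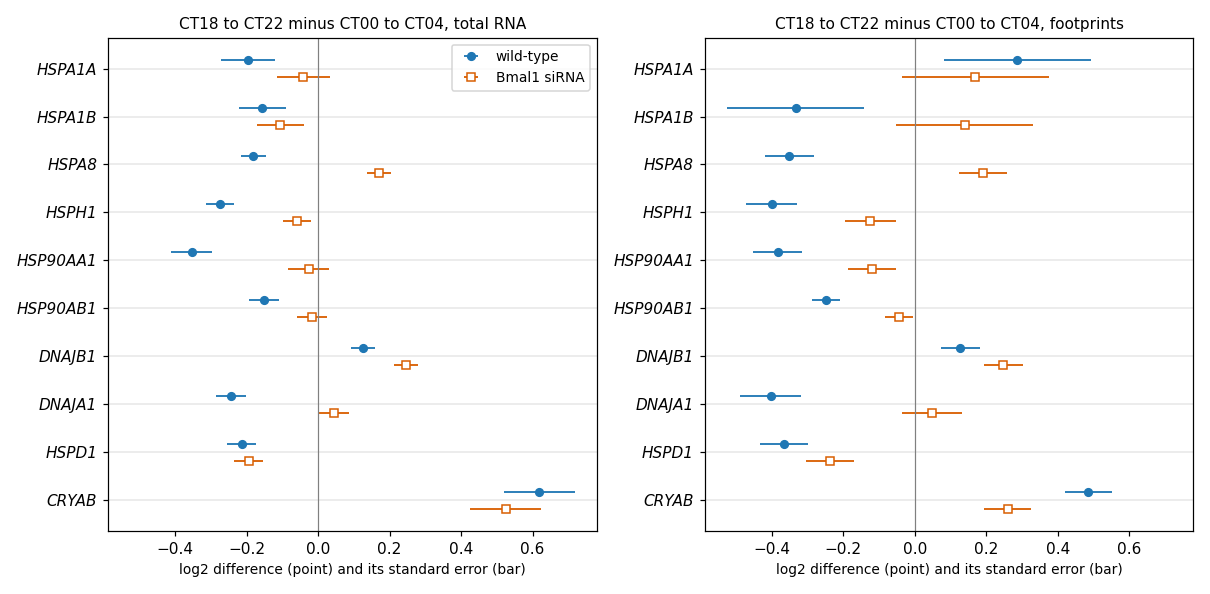
CT18 to CT22 minus CT00 to CT04 for each of the 10 genes, as the log2 difference (horizontal axis) with bars of 1 standard error, in total RNA (left) and footprints (right), for wild-type (filled circles) and Bmal1 siRNA cells (open squares). HSPA8 lies left of 0 in wild-type and right of 0 in the knockdown in both panels, while CRYAB lies right of 0 and HSPD1 left of 0 in both treatments.

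The difference between these 2 time courses was tested directly. In total RNA it passed for HSPA8 (0.35 ± 0.05, adjusted p = 1.8e-06, limma), HSP90AA1 (0.33 ± 0.08, 0.0040), DNAJA1 (0.29 ± 0.06, 5.0e-04) and HSPH1 (0.22 ± 0.06, 0.0049), each in the direction of a smaller fall or a rise in the knockdown. That is 4 of 10 members, all of them higher, beside 15.5% of 13677 genes (7.55% higher, 7.99% lower). In footprints HSPA8 (0.54 ± 0.10, 2.3e-04), DNAJA1 (0.45 ± 0.12, 0.0149) and HSP90AB1 (0.20 ± 0.06, 0.0165) passed, 3 of 10 beside 6.49% of 11671 genes (2.95% higher, 3.55% lower). For HSPD1 (0.02 ± 0.06 in total RNA) and CRYAB (-0.09 ± 0.14) the difference did not pass, and these errors do not show that the courses were alike. HSPH1 lost its call in total RNA without either replicate (0.22 and 0.21), HSP90AA1 without replicate 2 (0.19), and HSP90AB1 lost its call in footprints without replicate 1 (0.13) and with no filter (0.18) and gained one in total RNA without replicate 2 (0.22). HSPA8 and DNAJA1 passed in both assays under every alternative run.

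HSPA8, which had the largest of these differences, also showed them time by time. Its mean of 2 total RNA libraries was 2376 CPM in wild-type and 2439 CPM in the knockdown at CT00. At CT10 the means were 2484 and 2650 CPM, and at CT20 2126 and 2783 CPM. The knockdown minus wild-type difference ran from -0.06 at CT04 to 0.39 at CT20 in total RNA and from -0.18 at CT06 to 0.50 at CT20 in footprints. The wild-type course stayed near its first level until CT10 and was lower from CT14 on, and the knockdown course was higher from CT08 on.

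**Figure D4:**
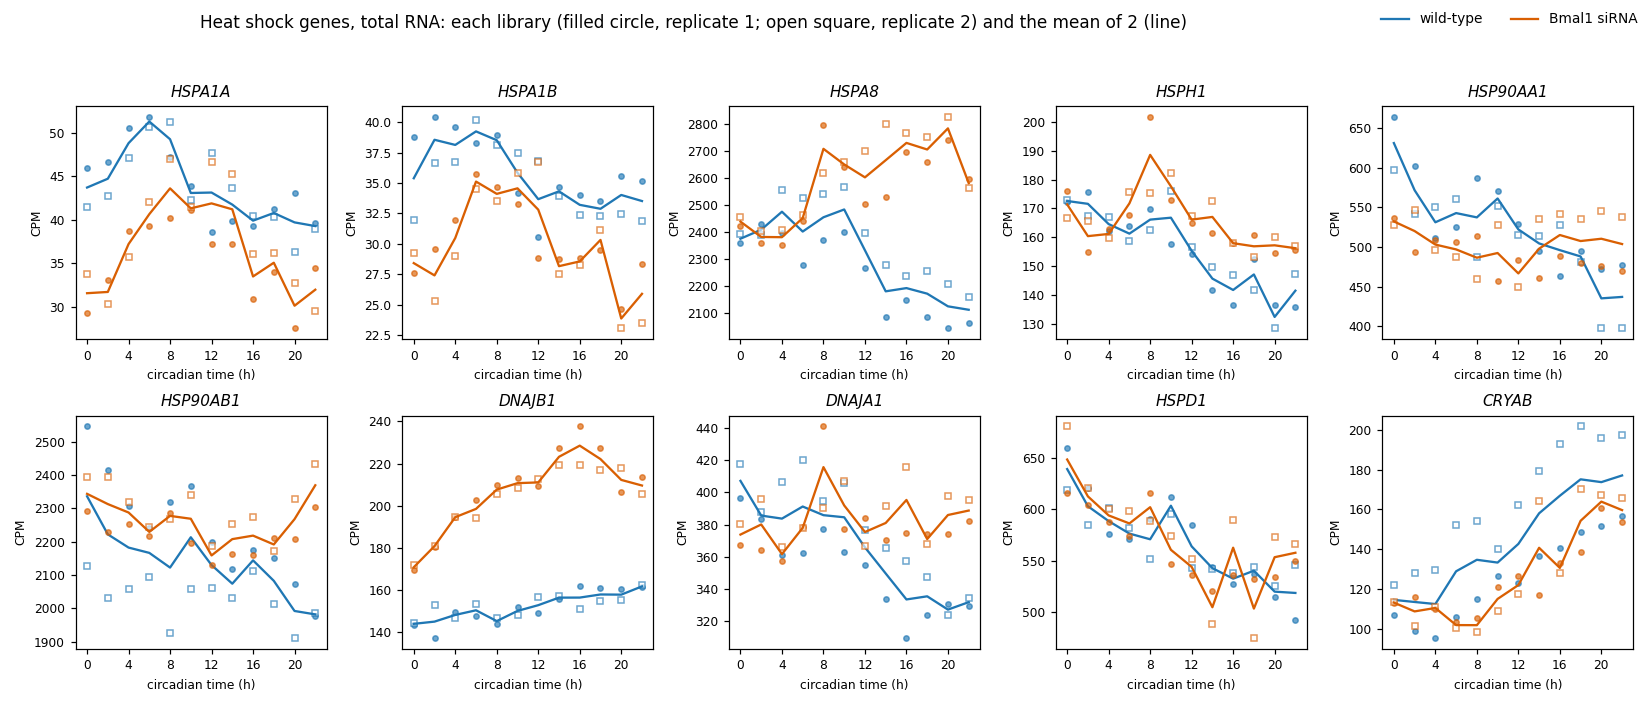
Total RNA of the 10 genes in CPM (vertical axes, each on its own range and not from 0) against circadian time in h, with each library as a point (filled circles, replicate 1; open squares, replicate 2) and the mean of 2 as a line, for wild-type (blue) and Bmal1 siRNA cells (orange). DNAJB1 runs above wild-type at every time, HSPA8 parts from wild-type after CT06, and HSPA1A and HSPA1B run below wild-type at all 12 times.

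**Figure D5:**
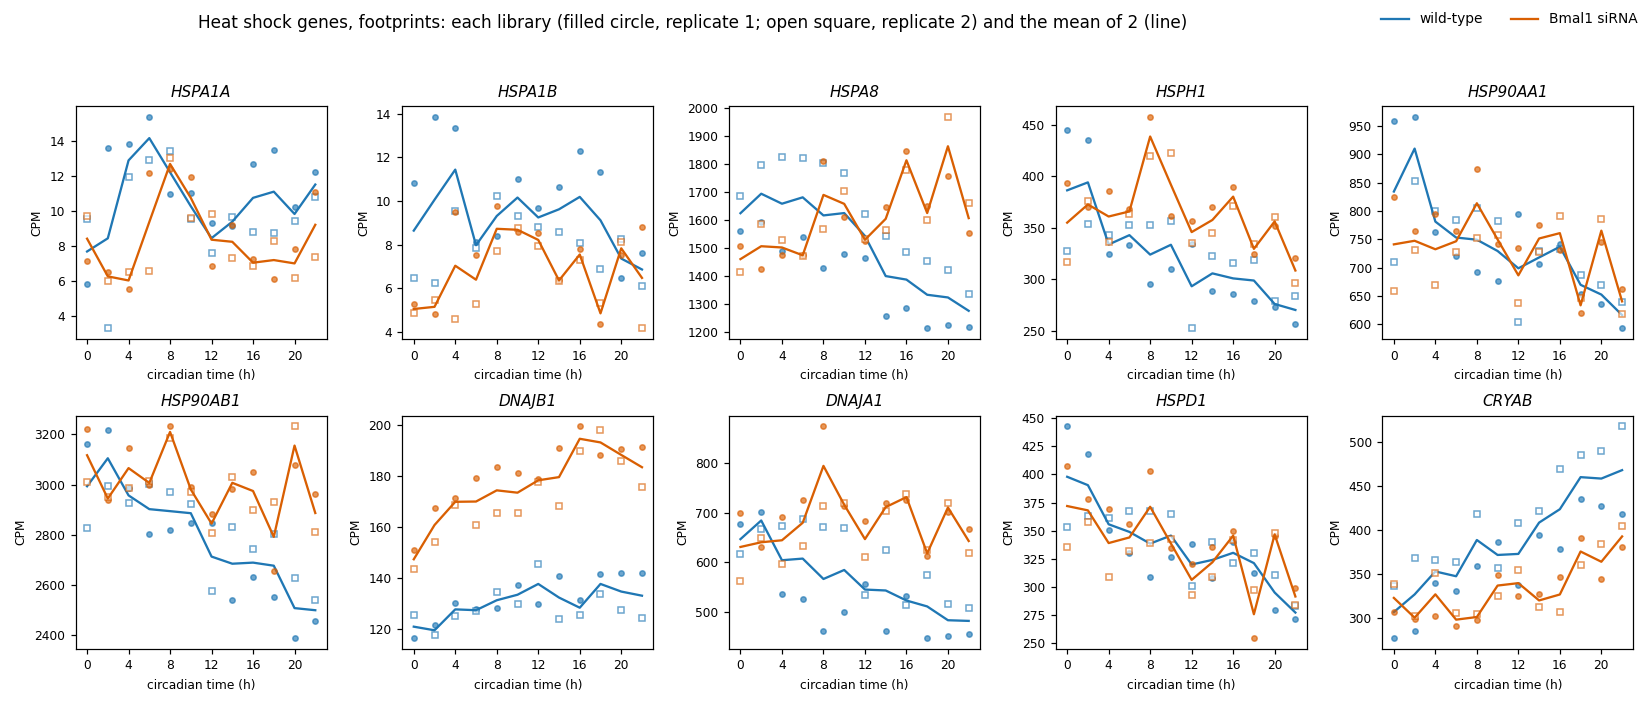
Ribosome footprints of the same genes in CPM (vertical axes, each on its own range and not from 0) against circadian time in h, with points and lines as for total RNA. HSPA1A and HSPA1B rest on 10 to 72 and 12 to 54 reads per library and scatter most, and DNAJB1 runs above wild-type at all 12 times.

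A cosine of 24 h was also fitted to each treatment and assay, with the amplitude taken on the log2 scale as peak minus fitted mean. In wild-type total RNA 8 of 10 passed, beside 21.9% of 13207 genes, with a median amplitude of 0.12 for the 10 and 0.07 for all genes. HSPA1A (amplitude 0.16 ± 0.03, peak at CT 6.14), HSPA1B (0.12 ± 0.03, CT 5.34), HSPA8 (0.11 ± 0.02, CT 6.50), HSPH1 (0.14 ± 0.02, CT 5.64), DNAJA1 (0.13 ± 0.02, CT 5.70) and HSPD1 (0.08 ± 0.02, CT 5.19) had early fitted peaks. DNAJB1 (0.06 ± 0.02, CT 17.1) and CRYAB (0.30 ± 0.07, CT 16.9) had late fitted peaks, and HSP90AA1 (0.13 ± 0.04, adjusted p = 0.0623, limma) and HSP90AB1 (0.04 ± 0.03, 0.508) did not pass. A fitted peak is not the highest time observed. The highest mean was at CT06 for HSPA1A and HSPA1B and at CT10 for HSPA8. It lay at the edges of the day for the others that passed, CT00 for HSPH1, DNAJA1 and HSPD1 and CT22 for DNAJB1 and CRYAB. A single day does not separate a cycle from a drift, and with a linear drift in the model none of the 10 passed (limma), 3 of them at an unadjusted p under 0.05. Over all genes 24 passed then. With the replicate number as a block the members' count stayed at 8 while that of all genes rose from 2892 to 4965.

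Wild-type footprints gave 3 of 10, HSPA8 (0.19 ± 0.04, CT 5.95), HSP90AB1 (0.11 ± 0.03, CT 5.29) and CRYAB (0.20 ± 0.05, CT 17.1), beside 6.75% of 11378 genes. None of the 10 passed there with the drift or without replicate 2 (limma; 0 and 4 at an unadjusted p under 0.05). In knockdown total RNA 8 of 10 passed, beside 33.1% of 13261 genes, all but HSP90AA1 (0.06 ± 0.02) and DNAJA1 (0.02 ± 0.02). HSPA1A (0.24 ± 0.04, CT 9.84) and HSPA1B (0.20 ± 0.04, CT 8.79) had fitted peaks nearer the middle of the day, and both genes still passed with the drift in the model (0.25 and 0.19, adjusted p = 2.4e-04 and 0.0078, limma). So did DNAJB1 (0.08, 0.0066) and CRYAB (0.17, 0.0214). The mean of HSPA1A in the knockdown was 31.6 CPM at CT00, 43.6 CPM at CT08 and 30.1 CPM at CT20. Knockdown footprints gave 4 of 10 (HSPA8, HSPH1, DNAJB1 and CRYAB), beside 17.7% of 11216 genes, and none with the drift (limma; 3 at an unadjusted p under 0.05).

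The change of rhythm between the treatments passed in total RNA for HSPA1A (amplitude of the difference 0.20 ± 0.04, adjusted p = 0.0052, limma), HSPA8 (0.18 ± 0.03, 1.8e-05), HSPA1B (0.16 ± 0.04, 0.0286), DNAJA1 (0.13 ± 0.03, 0.0140) and DNAJB1 (0.11 ± 0.03, 0.0175), 5 of 10 beside 10.7% of 13583 genes. In footprints it passed for HSPA8 (0.28 ± 0.05, 0.0022), 1 of 10 beside 3.77% of 11572 genes. With 12 libraries per treatment 2 of the 5 passed without replicate 1 (HSPA8 and DNAJA1) and 2 without replicate 2 (HSPA1A and HSPA8). With a drift in the model HSPA1A and DNAJB1 passed in total RNA and no member in footprints (limma; 0 at an unadjusted p under 0.05).

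Around the 10 members stand 61 other chaperone genes and their partners, of which 56 were tested in total RNA. In the knockdown 21 rose and 25 fell, 46 of 56 beside the 80.3% of all genes. HSF1, the heat shock transcription factor, rose by 0.42 ± 0.03 in total RNA (adjusted p = 6.1e-15, limma) and by 0.18 ± 0.04 in footprints (2.9e-05), and HSF2 fell in both (-0.35 ± 0.04 and -0.39 ± 0.06). Of the 4 regulators of heat shock transcription tested in total RNA, 2 rose and 2 fell. In efficiency 2 of 3 tested were lower in the knockdown, beside 14.8% of all genes, and the median of the 3 was -0.24. Among 5 relatives of HSP70 and HSP110, 3 rose and 2 fell. HSPA13 had the lowest value (-0.66 ± 0.03). HSPA6 had the largest rise, also among all the other chaperone genes, but was weakly expressed. Its mean went from 0.49 to 1.06 CPM, on at most 16 reads in a wild-type library and 29 in a knockdown library. Of 9 other J proteins 3 rose and 5 fell, from DNAJB4 (-0.50 ± 0.03) to DNAJB5 (0.67 ± 0.03). Of 7 exchange factors and partners of HSP70, 3 rose and 3 fell. BAG3, an exchange factor that is itself stress-induced, rose by 0.31 ± 0.05 in total RNA but differed by -0.05 ± 0.04 in footprints (adjusted p = 0.236, limma), with an efficiency lower by 0.36 ± 0.06 on the log2 scale.

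Of 9 partners of HSP90, 3 rose and 4 fell in the knockdown. CDC37, which brings kinases to HSP90, rose by 0.58 ± 0.03 in total RNA and 0.82 ± 0.03 in footprints, and FKBP5, a partner of the glucocorticoid receptor complex and itself a glucocorticoid-induced gene, fell by 1.05 ± 0.03 on the log2 scale in total RNA. Of 8 mitochondrial chaperones 5 rose and 2 fell. HSPE1, the lid of the HSPD1 chaperonin, fell by 0.33 ± 0.03 on the log2 scale in total RNA, where HSPD1 did not pass. In footprints HSPE1 differed by 0.25 ± 0.18 (adjusted p = 0.199, limma), its efficiency was higher by 0.58 ± 0.20 (0.0211), and 4 of the 8 mitochondrial chaperones rose while none fell. HSPE1 footprints were sparse, with means of 3.29 CPM in wild-type and 3.78 CPM in the knockdown. They rest on at most 27 and 21 reads in a library, so its efficiency is uncertain. Of 6 other small heat shock proteins 1 rose (HSPB8, 0.53 ± 0.04) and 5 fell in total RNA, among them HSPB1 (-0.38 ± 0.08) and HSPB3 (-1.30 ± 0.14). HSPB3 was weakly expressed, its mean going from 0.88 to 0.21 CPM on at most 25 and 8 reads in a library. HSPB7, another of the 5, was also weak, at 0.44 and 0.14 CPM. Of the 8 subunits of TRiC, the cytosolic chaperonin, 1 rose (CCT3, 0.20 ± 0.02) and 2 fell. In footprints 19 of 53 of the other chaperones rose and 18 fell, near the background of 37.2% and 36.9% of all genes. In efficiency 11 of 53 rose and 8 fell, beside 15.0% and 14.8%.

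Over the day in wild-type total RNA, 31 of 55 of these genes fell and 3 rose, beside 19.8% and 15.9% of all genes. In footprints 25 of 52 fell and 1 rose, beside 13.3% and 12.6%. The fall covered 8 of 9 HSP90 partners (FKBP4 -0.29 ± 0.04, AHSA1 -0.24 ± 0.03, STIP1 -0.20 ± 0.03), with FKBP5 the exception (0.20 ± 0.06). It also covered 6 of 8 mitochondrial chaperones (HSPE1 -0.29 ± 0.05) and 6 of 8 TRiC subunits (CCT2 -0.21 ± 0.04). Fewer fell among the other groups, 3 of 5 HSP70 relatives, 3 of 9 J proteins, 3 of 7 HSP70 partners and none of 4 regulators. Of 5 small heat shock proteins tested, HSPB1 (0.53 ± 0.17) was among the 2 that rose and HSPB8 (-0.44 ± 0.07) among the 2 that fell. In the knockdown 21 of 55 fell and 6 rose in total RNA, beside 17.0% and 15.3% of all genes, and 14 of 52 fell and 4 rose in footprints, beside 9.96% and 9.15%. All 8 TRiC subunits fell there in total RNA, as did 4 of 9 HSP90 partners. The difference between the treatments passed for 9 of 55 in total RNA, 6 of them higher in the knockdown, among them HSPB8 (0.56 ± 0.10) and AHSA1 (0.17 ± 0.05), and for 3 of 52 in footprints. Taken over all lists, these counts are near the background, 15.5% of all genes in total RNA and 6.49% in footprints. J proteins held the most calls in total RNA, 4 of 9, all higher, beside 7.55% of all genes. In footprints 1 of 9 was higher, beside 2.95%.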

How the data were processed

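Total RNA and ribosome footprints were measured in 96 libraries: 2 treatments, 2 assays, 12 times and 2 replicates. The authors aligned reads with STAR 2.3.0e to GRCh37 (hg19), counted them per gene with HTSeq 0.5.4p1 and normalised them with DESeq2, whose version is not given in the sources used here, per the submitters' processing notes. The total RNA kit marks strand, and whether counting used it is not given in the sources used here. The deposited values are a signal: reads per gene, which the authors scaled with 1 factor for each library. In each library 100% of them were whole multiples of 1 step within 0.001 reads, so whole reads were recovered. Genes listed were 19438, of which 790 had no read. Treatment, assay and replicate came from the table a column sits in and time from its name.

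Libraries held 13.6 to 20.1 M reads (M, 1000000) in total RNA, with 2 exceptions of 2.56 and 2.66 M, and 2.50 to 5.82 M in footprints. Reads were scaled by TMM within assay (edgeR 4.0.16), filtered with filterByExpr (minimum count 10) and tested as log2 CPM plus 0.25 with limma-trend and robust empirical Bayes (limma 3.58.1, R 4.3.3), with Benjamini-Hochberg adjustment over all genes tested and a threshold of 0.05. The pseudocount makes differences of weakly expressed genes smaller. All 48 libraries of an assay entered the treatment and time comparisons, and the 24 of a treatment and assay each rhythm. edgeR's quasi-likelihood test on the recovered reads called 11399 genes for the knockdown in total RNA, where limma called 11271. The scripts were tested on simulated data. All 10 members were named in each comparison by rule, with other chaperones counted from lists by role: regulators of heat shock transcription, HSP70 relatives, J proteins, HSP70 partners, HSP90 partners, mitochondrial chaperones, small heat shock proteins and TRiC. The members and lists were chosen with earlier results of these data known, and the test of the difference between the time courses was added after the data were seen. Replicate numbers paired the wild-type total RNA libraries: deviations of same-numbered libraries correlated at 0.29 to 0.50 over 66 pairs of times, which was not so in the knockdown (-0.12 to 0.35) or between treatments at 1 time (-0.09 to 0.13). Wild-type footprints correlated with wild-type total RNA of the same number and time at 0.19 to 0.36 (12 pairs), the knockdown assays at -0.0015 to 0.43, and wild-type footprints across times at 0.0021 to 0.41. Promoter windows are from RefSeq, GRCh38.p14; no genome of the authors' build was used. Alternatives were other scalings (median ratio, the authors' own), a pseudocount of 1, no filter, edgeR, leaving out a replicate or the 2 shallow libraries, a replicate block, a linear drift and means over the 12 times.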

Additional observations from a re-analysis of the deposited data

Results flagged for a closer look

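Several results were picked out because a test of the difference between the treatments, or between the assays, passed at an adjusted p under 0.05 (limma, over all genes tested). For the size of the fall or rise from the first to the last 3 times, the treatments differed in total RNA for HSPA8 (0.35), HSP90AA1 (0.33), DNAJA1 (0.29) and HSPH1 (0.22), and in footprints for HSPA8 (0.54), DNAJA1 (0.45) and HSP90AB1 (0.20), all log2 differences of knockdown minus wild-type. For the 24 h cosine, they differed in total RNA for HSPA1A (0.20), HSPA8 (0.18), HSPA1B (0.16), DNAJA1 (0.13) and DNAJB1 (0.11), and in footprints for HSPA8 (0.28), as log2 amplitudes of the difference. The knockdown effect differed between footprints and total RNA for DNAJA1 (0.21). A group holds 2 libraries, so no library could be tested as an outlier within its group.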

How the results depend on the processing

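Of 1360 values of a member under an alternative, 1254 kept their side of the threshold and, where called, their direction. Another 84 lost their call, 15 gained one and 7 reversed while called in either setting. For values called in neither setting the direction was not compared. Scaling by median ratios and a pseudocount of 1 changed no call of a member, and edgeR changed 1. The reversals were, in the knockdown effect, HSP90AB1 in total RNA without replicate 2 (-0.014), HSPA8 in footprints without replicate 1 (-0.019, against 0.20 without replicate 2), and, with the authors' scaling, HSP90AA1 (0.082) and HSPD1 (0.082) in footprints and DNAJB1 in efficiency (0.083). With a linear drift the peaks of HSPD1 in wild-type total RNA (amplitude 0.014) and CRYAB in wild-type footprints (0.027) moved to the opposite side of the day. The authors' scaling took the share of higher calls over all genes from 50.2% to 60.9% in knockdown footprints, and 5 members then passed in efficiency.

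With 2 values against 2, members past the threshold were 3 in total RNA and 5 in footprints, beside 57.3% and 57.7% of all genes. In efficiency 0 members passed, and 164 of all genes were called instead of 3560 (38.4% higher, against 50.4%). With the drift the rhythm counts of members and all genes were 0 and 24 (wild-type total RNA), 0 and 7 (wild-type footprints), 4 and 582 (knockdown total RNA), 0 and 268 (knockdown footprints), 2 and 159 (change in total RNA) and 0 and 65 (change in footprints). With no filter 2 members passed for knockdown footprint rhythms. Where a count of members was 0, those at an unadjusted p under 0.05 (limma) were 0 in efficiency with 2 values against 2 and 1 without replicate 1. With the drift they were 3 and 0 for wild-type rhythms in total RNA and footprints, 3 for knockdown footprints and 0 for the change in footprints. Without 1 replicate they were 4 in wild-type and 4 in knockdown footprints.

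Leaving out 1 replicate gave these counts of members, lowest to highest: 5 to 8 for the knockdown in footprints, 0 to 2 in efficiency, 0 to 3 for wild-type footprint rhythms, 5 in knockdown total RNA, 0 to 1 in knockdown footprints and 2 for the change in total RNA. For the late minus early comparison it gave 5 to 9 in wild-type total RNA, 4 to 8 in wild-type footprints and 2 to 4 in knockdown footprints. Counts of all genes were 1916 to 2572 (efficiency), 1585 to 2735 (wild-type total RNA rhythms), 135 to 476 (wild-type footprints), 1124 to 1973 (knockdown total RNA), 475 to 797 (knockdown footprints), 415 to 956 and 84 to 130 (change in total RNA and footprints). Late minus early they were 2702 to 4901 (wild-type total RNA), 1350 to 2401 (wild-type footprints), 1026 to 1931 (knockdown footprints), 944 to 2387 and 362 to 414 (change in total RNA and footprints).

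With the replicate number as a block, counts of all genes rose from 2892 to 4965 for wild-type total RNA rhythms and from 768 to 1346 for wild-type footprints, where DNAJA1 then passed (0.16, adjusted p = 0.0333, limma); the block changed no other call of a member. The cause of these changes was not tested. Limits of depth fall on HSPA1A and HSPA1B in footprints, at 10 to 72 reads per library, where standard errors of the knockdown effect were 0.10.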

Other observations

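For each of the 10 genes, the 3 genes whose total RNA was most like it were listed by Pearson's r over 24 means, the 12 times of each treatment, among 10168 genes whose log2 CPM averaged 3 or more. Each treatment was first centred on its own mean, so the step between the treatments does not enter r. The means share their libraries, so r is a description with no test. CRYAB was closest to CRMP1 (0.98), APBB2 (0.95) and LGALS3BP (0.95), HSPD1 to NAA20, NAA50 (both 0.95) and UCHL3 (0.95), and DNAJB1 to LIF (0.93), FDXR (0.92) and TCF25 (0.91). HSPA1A and HSPA1B had CKS2 first (both 0.88), followed by KIF20A and ARL6IP1 for HSPA1A and by CKAP2 and NEK2 for HSPA1B. HSPH1 had ZFR (0.91), AHSA1 (0.90), the activator of the HSP90 ATPase, and HSPB11 (0.88). First in line were NXPE3 for HSP90AA1 (0.91), KIF3B for HSP90AB1 (0.89), NOP2 for DNAJA1 (0.90) and LUC7L for HSPA8 (0.88).

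Within the 10, r over the same means was highest for HSP90AA1 with HSP90AB1 (0.87), HSPA1A with HSPA1B (0.86) and HSPH1 with DNAJA1 (0.84). It was lowest for DNAJB1 with HSPD1 (-0.83), CRYAB with HSPH1 (-0.81) and CRYAB with HSPD1 (-0.78). HSPA1A took 52.8% to 57.5% of the reads of the HSPA1A and HSPA1B pair in wild-type total RNA and 51.6% to 62.2% in the knockdown. HSP90AA1 took a median of 19.7% of the HSP90 pair in wild-type and 18.2% in the knockdown.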
